A study of Mus musculus with 4 samples.

Results

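The 8 genes described here are Fabp7, S100b, Gfap, Mbp, Pmp22, Gas7, Entpd2 and Erbb3, taken by symbol as genes of glia and of Schwann cell precursors. All 8 are in the table of 27178 genes, and 5 of them had a read. RNA-seq measured them in mouse embryos of 11.5 days post coitum, in the gut cells that descend from the neural crest. Cells of Wnt1-tdT embryos, in which the tdT label marks derivatives of the neural crest, were sorted by flow cytometry from the wavefront, the front of the cells that colonise the gut (2 libraries), and from a position 1 to 1.5 mm behind it, here called trailing (2 libraries). Both groups carried the same transgene, the labels name no treatment, and the comparison asks how the RNA of cells at the front differs from that of cells that follow. The source of each replicate (own embryo, litter or pool) was not given in the sources used here. Thus p-values reflect the spread among these 4 libraries alone, and that spread may be technical.

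Enteric glia, like the Schwann cells of nerves, arise from neural crest cells that keep the transcription factor Sox10. Schwann cell precursors travel along nerves, depend on neuregulin signalling through the receptor pair ErbB2 and ErbB3, and express Fabp7 and Cdh19 before they mature. S100b, Gfap and Entpd2 are classical markers of glia in the postnatal gut, while Mbp and Pmp22 encode proteins of compact myelin, which enteric glia do not make.

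The libraries were shallow, with 258457 to 535636 reads, and 1 read was worth 1.84 to 3.84 CPM, that is, gene reads per library brought to an equal total. Wavefront replicate 2 stood apart. Ribosomal RNA took 55.5% of its reads against 15.6 to 26.1% in the other libraries, which left it 114972 other reads against at least 330644. It also held 110 reads of the listed red blood cell genes, against 0 to 2 elsewhere. The sorted cells had the defining genes of enteric neural crest: all 11 listed crest markers had reads, among them Ret, the receptor for GDNF. Some marker lists of other cell types had summed levels that differed between the groups. All 20 listed enteric neuron genes had reads. Their summed level, as CPM of the reads outside ribosomal RNA, was 5591 and 6336 behind the front against 1327 and 1226 at it. Of 18 of them tested by edgeR 17 fell at the wavefront (Cartpt, Chrna3, Dbh, Dcx, Elavl3, Gal, Mapt, Nefl, Prph, Rtn1, Slc18a3, Stmn2, Stmn3, Syt1, Th, Tubb3 and Uchl1), and Elavl4 did not pass, where 1.34% of all genes tested fell. DESeq2 called 7 of 16 and limma 0 of 20, with 19 at an unadjusted p under 0.05, and under alternative settings of the count test Uchl1 passed in 2 of 12, Cartpt in 4 of 11 and Chrna3 in 6 of 12. Of 19 gut mesenchyme genes 15 had reads, and Nkx3-2, Osr1, Twist1 and Barx1 had 0. Their sums were 246 and 251 against 529 and 1583, and of 3 tested by edgeR Des and Col3a1 rose, where 0.399% of all genes did. DESeq2 called 0 of 3 and limma 0 of 15, with 3 at an unadjusted p under 0.05. Des passed in 8 of 11 alternative settings and Col3a1 in 5 of 12, with edgeR adjusted p of 0.249 for Des without wavefront replicate 1. For Col3a1 the edgeR adjusted p was 0.191 without wavefront replicate 2, 0.179 and 0.169 without trailing replicates 1 and 2, and 0.787 with scaling by library size alone. Sums of 15 gut epithelium genes were 10.3 and 9.07 against 39.8 and 87.0, with Cdx2, Foxa1 and Sox17 at 0. These epithelium sums rest on 4 and 3 against 18 and 10 reads. EdgeR tested 0 of these genes, and limma called 0 of 6, with 1 at an unadjusted p under 0.05. Sums of 10 endothelium genes were 67.3 and 87.7 against 88.5 and 113, from 26 and 29 against 40 and 13 reads.

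None of the 8 genes was called different between wavefront and trailing cells. Erbb3 and Gas7 were the 2 best measured, Mbp and Pmp22 had a few reads in every library, Fabp7 had reads in the trailing libraries alone, and S100b, Gfap and Entpd2 had 0 reads in all 4 libraries. Limma on log2(CPM + 1), with Benjamini-Hochberg adjustment over all genes tested and a threshold of 0.05, tested 5 of the 8 and called 0, with 1 of them, Fabp7, at an unadjusted p under 0.05. It called 0 of 12519 genes in all (0%), with 858 at an unadjusted p under 0.05. The deposited CPM were whole multiples of 1 read, so edgeR's quasi-likelihood test was also run on the recovered reads. Its filter of 10 reads kept 2 of the 8 genes, Erbb3 and Gas7, and it called neither, with Gas7 at an unadjusted p under 0.05. It called 100 of 5759 genes, 1.74%. Without a filter edgeR tested 5 of the 8 and called 0, where it called 117 of 14589 genes (0.802%). DESeq2 gave an adjusted p for 2 of the 8 and called 0 (0.277% of 4690 genes called).

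**Figure D1:**
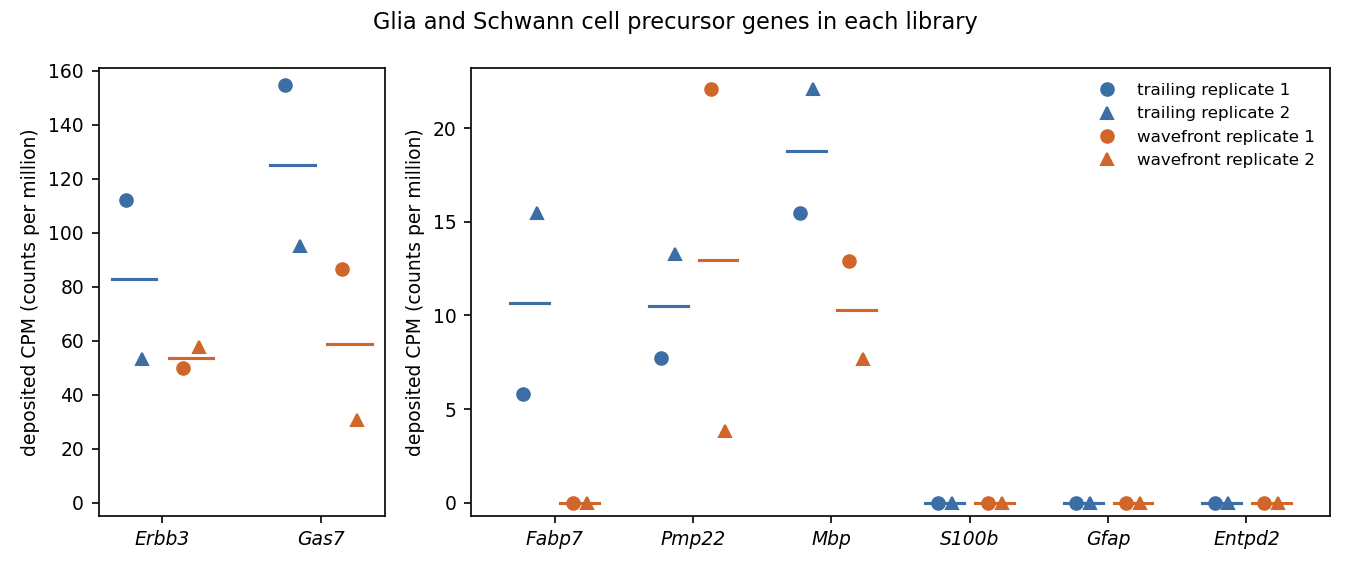
Deposited CPM of the 8 genes in each library; blue symbols are trailing and orange symbols wavefront libraries, circles replicate 1 and triangles replicate 2, and short lines mark the mean of each group's 2 libraries. Erbb3 and Gas7 (left, with its own axis) reach 112 and 155 CPM, while S100b, Gfap and Entpd2 lie at 0 in all 4 libraries.

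Erbb3, the neuregulin receptor with a weak kinase that signals with ErbB2, was read in every library. Its reads numbered 58 and 24 behind the front against 27 and 15 at it, which is 112 and 53.1 CPM against 49.7 and 57.6 CPM. The groups overlapped, and on deposited CPM trailing replicate 1 alone stood high. As CPM outside ribosomal RNA the values were 150 and 72.6 against 59.7 and 130, where wavefront replicate 2 stood high as well. The log2 fold change, wavefront over trailing, was -0.52 ± 0.48 (SE) in limma, with a 95% interval of -1.68 to 0.64 and an adjusted p of 0.803. In edgeR it was -0.48 ± 0.37 (adjusted p = 0.762), and it turned to 0.26 without trailing replicate 1 (adjusted p = 0.963) and to 0.12 without wavefront replicate 1 (adjusted p = 0.978). Erbb3 lies on chromosome 10, 128567523 to 128589652 (GRCm38, minus strand), and shares no exon base with another annotated gene.

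Gas7, a protein of growth-arrested cells that binds membrane and actin and is best known from neurite outgrowth, had the most reads of the 8. There were 80 and 43 trailing against 47 and 8 wavefront reads, which is 155 and 95.1 CPM against 86.5 and 30.7 CPM. Both wavefront libraries lay below both trailing ones, as they did for 27% of the genes tested by edgeR (the reverse order held for 6.18%). The log2 fold change was -1.21 ± 0.58 (SE) in limma, with a 95% interval of -2.62 to 0.19 and an adjusted p of 0.689. In edgeR, Gas7 was at -0.82 ± 0.34 (adjusted p = 0.354), and its scaled CPM, reads over TMM-adjusted library sizes, averaged 114 ± 41.1 for trailing and 59.7 ± 21.4 for wavefront libraries (± SD, n = 2 per group). Without wavefront replicate 2, the library with the large ribosomal share, the limma value was -0.48 (adjusted p = 0.756), so that 1 library moves the difference by more than the standard error. Gas7 spans chromosome 11, 67455437 to 67688990, and shares 66 exon bases with Glp2r on the other strand, which had 0 reads here.

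Fabp7, the brain fatty acid binding protein of radial glia and Schwann cell precursors, was the gene of the 8 with the largest difference, and it rested on 10 reads. The trailing libraries had 3 and 7 reads (5.80 and 15.5 CPM) and the wavefront libraries 0 and 0. The groups did not overlap. Of the 3260 genes with 10 to 30 reads in all, 34.3% also had both wavefront libraries below both trailing ones, and 7.79% both above, so this order is common at such counts. On CPM outside ribosomal RNA, where Fabp7, Mbp and Gas7 keep the order, the shares were 26% and 11% at these counts, and 21.8% and 17.3% among genes tested by edgeR. With the wavefront set at a floor of 3 reads over the group and the 10 trailing reads taken as exact, Fabp7 was 2.54-fold lower there. That value is not a lower limit. The exact binomial interval of the wavefront over trailing ratio ran from 0 to 0.586 (95%, counting error only), which allows a fall of only 1.71-fold. In limma Fabp7 was at -3.40 ± 0.86 (SE) with an unadjusted p of 0.00656 and an adjusted p of 0.68, and edgeR without a filter gave an adjusted p of 0.295. The gene lies on chromosome 10, 57784881 to 57788450.

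S100b, a calcium-binding protein, and Gfap, the glial intermediate filament, are the usual stains for glia, and neither had a read. Entpd2, an enzyme on the surface of enteric glia that splits ATP, had none either. With 3 reads as the floor, 0 reads in a library allow up to 5.52 to 6.64 CPM in the 3 deeper libraries and 11.5 CPM in wavefront replicate 2. S100b lies on chromosome 10 (76253853 to 76261159), Gfap on chromosome 11 (102887336 to 102900912) and Entpd2 on chromosome 2 (25395874 to 25401321). Entpd2 shares 612 exon bases with Npdc1 on the same strand, which had 75 reads, and the handling of shared exons in counting was not given in the sources used here. For Entpd2, a count of 0 therefore covers only reads assigned to it.

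The myelin genes were read at low levels in both positions. Mbp, myelin basic protein, whose locus also encodes the golli proteins of cells that make no myelin, had 8 and 10 trailing against 7 and 2 wavefront reads (15.5 and 22.1 against 12.9 and 7.69 CPM). The groups did not overlap, which again holds for 34.3% of genes of 10 to 30 reads in this direction. The limma log2 fold change of Mbp was -0.83 ± 0.60 (95% interval -2.27 to 0.61, adjusted p = 0.786). Scaled CPM of Mbp were 17.1 ± 3.90 in trailing cells and 11.1 at the wavefront, where the 2 libraries gave the same value to 3 digits. That match rests on 7 and 2 reads, the latter fewer than the floor of 3 reads, and is no measure of precision. Reads were not divided between the myelin and golli transcripts. The gene spans chromosome 18, 82475146 to 82585637.

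Pmp22, a membrane protein of compact myelin that many dividing and resting cells also make, had 4 and 6 trailing against 12 and 1 wavefront reads (7.74 and 13.3 against 22.1 and 3.84 CPM). The highest and the lowest library were both wavefront libraries, so the groups overlapped fully. Its direction depended on the scaling: the log2 fold change was -0.08 ± 0.90 in limma on deposited CPM (95% interval -2.25 to 2.09, adjusted p = 0.988) and 0.16 (adjusted p = 0.969) after scaling by DESeq2's size factors. Leaving out a wavefront library moved Pmp22 to -1.21 (without replicate 1) or 1.05 (without replicate 2). Pmp22 lies on chromosome 11, 63128982 to 63159547.

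**Figure D2:**
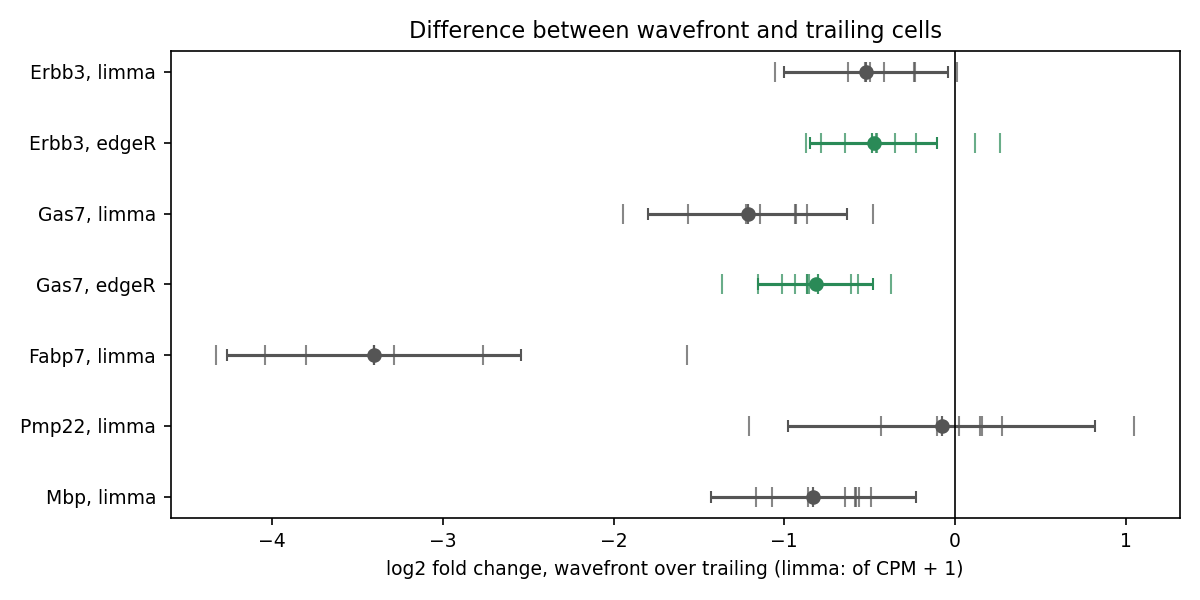
Log2 fold change, wavefront over trailing, of the 5 genes with reads, as dots with their standard errors. Limma is grey (of CPM + 1) and edgeR green, for the 2 genes that passed its filter. Vertical ticks are the alternatives, which in green include DESeq2 and the authors' deposited fold changes. All ticks of Gas7, Fabp7 and Mbp lie below 0, while those of Erbb3 and Pmp22 fall on both sides.

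The log2 fold changes of the authors' deposited table for the 5 genes with reads ran from -0.61 ± 0.43 for Gas7 to 0.17 ± 0.43 for Pmp22. Of their unadjusted p-values in the authors' deposited table the smallest was 0.154, for Gas7. After Benjamini-Hochberg adjustment, done here, p-values in the authors' deposited table passed for 0 of the 5 (13 of 14589 genes, 0.0891%).

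Between genes, levels were compared as CPM outside ribosomal RNA per kilobase of annotated exon. In trailing cells the order was Erbb3 (18.5, mean of 2 libraries), Gas7 (14.9), Fabp7 (11.6), Pmp22 (6.05) and Mbp (3.01). The libraries of each neighbouring pair overlapped on this scale except those of Pmp22 (4.40 and 7.71) and Mbp (2.44 and 3.57). At the wavefront the order was Erbb3 (15.8), Gas7 (7.65), Pmp22 (7.48) and Mbp (1.94). Fabp7 had 0 reads there, and its floor of 4.23 lies above Mbp, so it has no place in this order relative to Mbp. There Erbb3 (9.93 and 21.7) lay above Gas7 (9.16 and 6.13) in both libraries, Gas7 and Pmp22 overlapped, and Pmp22 lay above Mbp. In wavefront replicate 2 the order of Pmp22 and Mbp rested on 1 and 2 reads, fewer than the floor of 3 reads. On the same per-length scale a floor of 3 reads over the trailing libraries corresponds to 0.992 for Gfap, 1.97 for Entpd2 and 2.82 for S100b, all below the trailing level of Mbp, the lowest gene with reads. At the wavefront the floors were 1.25, 2.49 and 3.56, and those of Entpd2 and S100b lie above the level of Mbp there. Ret, for scale, was at 287 in trailing cells and 331 at the wavefront.

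**Figure D3:**
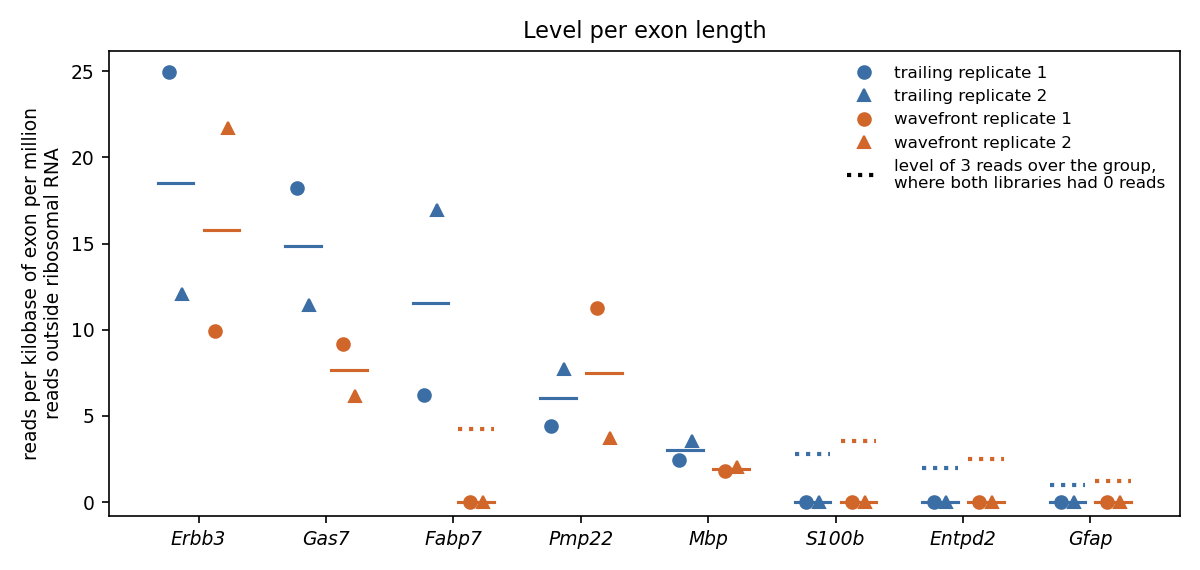
CPM outside ribosomal RNA per kilobase of annotated exon for the 8 genes; symbols and colours are trailing (blue) and wavefront (orange) libraries, replicate 1 as circles and replicate 2 as triangles, with lines at group means. Dotted lines mark the level of 3 reads over a group where both of its libraries had 0 reads, such as 2.82 for S100b in trailing cells.

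The partners of ErbB3 were then read from a list of neuregulin and ErbB signalling genes, of which 24 were in the table and 20 had reads. EdgeR tested 15, called 0 and had 0 at an unadjusted p under 0.05. Limma tested 19, called 0 and had 1 at an unadjusted p under 0.05. DESeq2 called 0 of 13. The median edgeR log2 fold change was 0.02, against 0.01 over all genes tested. The members with the most reads were Cdc42, a small GTPase of the cytoskeleton, at 0.01 ± 0.35, the focal adhesion kinase gene Ptk2 at 0.21 ± 0.31, the adaptor gene Shc1 at -0.21 ± 0.33 and the kinase subunit gene Pik3r2 at -0.40 ± 0.33 in edgeR. Genes with a direct part in ErbB3 signalling are given next for their role, with their values already seen. Erbb2, the partner that supplies the kinase, had 10 and 10 trailing against 12 and 3 wavefront reads (edgeR -0.03 ± 0.58, adjusted p = 0.996). Per length it stood at 5.39 in trailing cells and 5.05 at the wavefront, below Erbb3 in each library. Erbb4 had 0 reads in all 4 libraries and Egfr had 1. The ligand gene Nrg1 had 7 and 5 trailing reads against 0 and 1, a scaled trailing over wavefront ratio of 9.14 (95% counting interval 1.35 to 391). Its groups did not overlap, as for 34.3% of genes with 10 to 30 reads in this direction. Nrg4, another neuregulin gene, went the other way, with 7 and 3 trailing against 11 and 5 wavefront reads. Its scaled wavefront over trailing ratio was 2.10 (95% counting interval 0.896 to 5.18). Nrg1 was below the edgeR filter, and in limma it had an adjusted p of 0.68.

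Among 26 transcription factors of crest and glia, 23 had reads. EdgeR tested 7 and called 0, with 2 at an unadjusted p under 0.05, limma tested 21 and called 0, with 2 at an unadjusted p under 0.05, and DESeq2 called 0 of 6. The edgeR median was -0.72, against 0.01 over all genes. Sox10, a regulator of Erbb3 and Mbp in glial lineages, had 22 and 26 trailing against 14 and 4 wavefront reads (42.6 and 57.5 against 25.8 and 15.4 CPM). The groups did not overlap, as for 27% of the genes tested by edgeR in this direction. The log2 fold change of Sox10 was -1.02 ± 0.46 in edgeR (adjusted p = 0.42) and -1.27 ± 0.48 in limma (adjusted p = 0.68). Sox8, a related SOXE factor, had 36 and 32 against 54 and 15 reads (0.41 ± 0.33 in edgeR, adjusted p = 0.775). Of the other members with the most reads, Id3, an inhibitor of bHLH factors, was at -0.74 ± 0.32 and Zeb2, a crest factor, at 0.62 ± 0.31 in edgeR. Egr2 and Pou3f1, which drive myelination in Schwann cells and are named here with their values seen, had 3 reads and 0 reads in all.

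A list of 41 further Schwann cell precursor and early glia genes, without the 8, had 33 members with reads. EdgeR tested 19 of them: 2 fell at the wavefront, Postn among them, 0 rose and 17 did not pass, where 1.34% of all genes tested fell and 0.399% rose. Of the 19, 9 had an unadjusted p under 0.05 in edgeR, against 573 of 5759 genes. The median was -0.28, against 0.01 over all genes tested. Limma tested 28 and called 0, with 6 at an unadjusted p under 0.05, and DESeq2 called 1 of 18.

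Postn, periostin, a matrix protein that mesenchyme also makes, had 81 and 46 trailing against 20 and 3 wavefront reads. In edgeR it fell by 2.09 ± 0.38 on the log2 scale (adjusted p = 0.000286), and it did not pass in DESeq2 (adjusted p = 0.272), by the authors' deposited p-values or without trailing replicate 1. The members with the most reads did not pass in edgeR: the intermediate filament gene Vim was at 0.59 ± 0.45, the neurotrophin receptor gene Ngfr at 0.45 ± 0.34, the growth cone gene Gap43 at -0.39 ± 0.33 and the endothelin receptor gene Ednrb at -0.28 ± 0.33. Cdh19, a cadherin of Schwann cell precursors named with its values seen, had 20 and 19 trailing against 23 and 10 wavefront reads (0.19 ± 0.42 in edgeR, with an adjusted p of 0.939). Its groups overlapped. Of the same list, 8 genes had 0 reads in all 4 libraries, among them the myelin genes Pmp2, Mal and Mog. Postn was lower in the same libraries in which the summed enteric neuron genes were lower and the summed mesenchyme and epithelium genes higher. The part of these cell types in the results was not tested, and in bulk samples fewer cells of a type and less RNA per cell cannot be told apart.

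**Figure D4:**
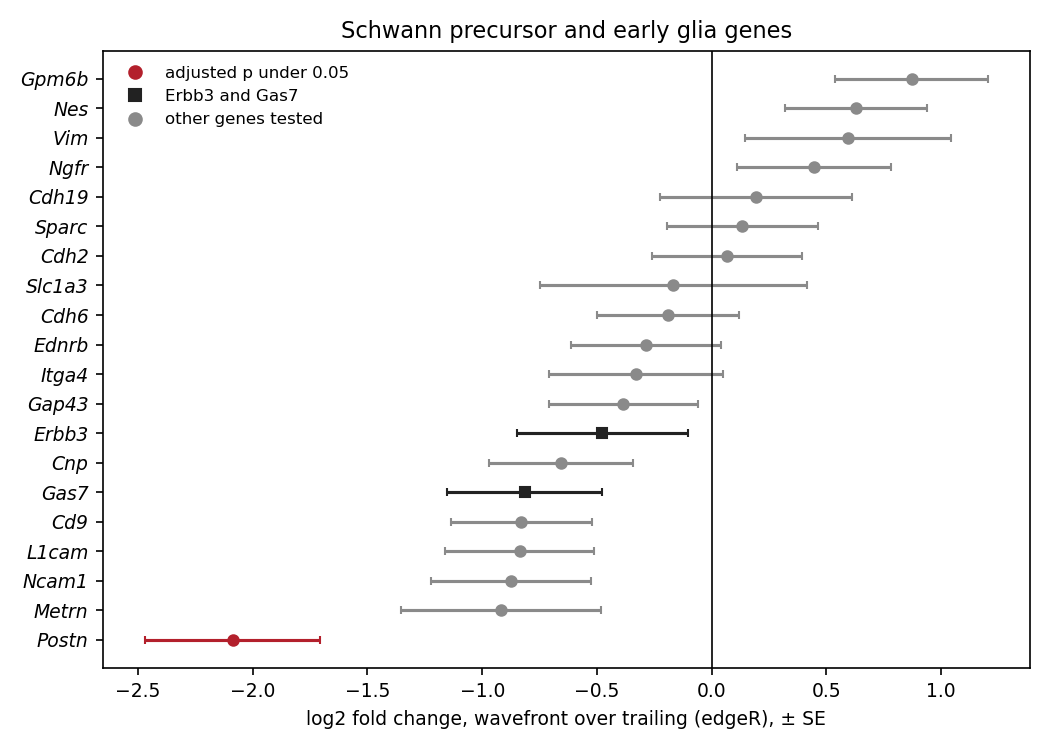
EdgeR log2 fold changes, wavefront over trailing, with standard errors, for 18 of the 19 tested Schwann cell precursor and early glia genes (circles) and for Erbb3 and Gas7 (squares), ordered by value. Postn, in red, is the only gene drawn with an adjusted p under 0.05.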

How the data were processed

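The samples were 4 libraries, 2 wavefront and 2 trailing, held in 1 table of 27606 rows. The labels' protocols describe digestion of tissue by collagenase and dispase, sorting of labelled cells, Trizol and the Nextera XT kit, which keeps no strand. From the submitters' processing notes come STAR 2.5.2b, featureCounts, DESeq2, bcl2fastq 2.17 and FastQC 0.11.9, with build GRCm38 (mm10). Counting settings and annotation release: not given in the sources used here. CPM of each library were deposited, per the file headers. The authors also deposited BaseMean, a signal that averages normalized reads, a log2 fold change with its standard error, a Wald score and an unadjusted p-value.

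Each CPM value was a whole multiple of 1 read: 100% were whole within 0.01 reads, and these reads were recovered. Repeated rows (428) were dropped, leaving 27178 genes, 14589 with a read. The main test was limma 3.58.1 (trended variance, log2 of CPM plus a pseudocount of 1), run where the mean CPM of a gene exceeded 1. A fold change on that scale understates the change of low genes. The count test on recovered reads was edgeR 4.0.16 (quasi-likelihood, TMM, filterByExpr with 10 reads), with location as the only term, and DESeq2 1.42.0 an alternative, under R 4.3.3. All tests are two-sided, and adjusted p are Benjamini-Hochberg over all genes tested. EdgeR reports no standard error, so those given for it are the absolute log2 fold change over the square root of its F statistic. With 2 against 2 libraries an exact permutation test cannot go below 0.333, so none was used. Over all genes tested, fold changes had a median (log2) of -0.35 in limma and 0.01 in edgeR, to which single genes should be compared. Scripts were tested on simulated data. Exon lengths and coordinates are from GENCODE M21, on the same build; ribosomal RNA was the 4 genes Rn45s, Rn18s, mt-Rnr1 and mt-Rnr2. Reads carried no molecular identifiers, so intervals and floors cover counting error only.

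The 8 genes and the 16 other gene lists were chosen with earlier results of these data known. The count test called 100 genes. Named genes of those lists were the members called by edgeR and the 4 with the most reads, others are said to be named with their values seen, and cell type lists are given as sums. Some items are not reported here. A rule naming genes with the most similar profile applied only to members called by edgeR, and there were 0.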

Additional observations from a re-analysis of the deposited data

How the results depend on the processing

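None of the 8 genes was called under any of the 10 alternatives of limma or the 12 of the count test. The replicate number does not pair the libraries by any label, and deviations from the group means of same-numbered libraries had a correlation of 0.0646 over 5759 genes. With the replicate block, limma called 52 genes and edgeR 78, with 0 of the 8 among them. Limma called 3 genes with a pseudocount of 5, 5 without a filter, 9 with DESeq2's size factors and 4 with ribosomal RNA left out of the total. EdgeR's 100 became 38 with a filter of 30 reads, where fewer genes were tested, 13 in DESeq2, 13 by the authors' deposited p-values, and 41 to 142 with 1 library left out (44 without trailing replicate 1 and 41 without trailing replicate 2). With scaling by library size alone it was 74 (9 higher, 65 lower, against 23 and 77).

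Gas7, Fabp7 and Mbp were below 0 under all 10 alternatives of limma, with values of -1.95 to -0.48, -4.33 to -1.57 and -1.17 to -0.49. Gas7 was also below 0 under all 12 alternatives of the count test. Fabp7 and Mbp did not pass the main filter of edgeR, and without a filter it gave them -5.17 and -0.57. Their count-test values with 1 library left out were not read. Pmp22 was above 0 in limma with a pseudocount of 5 (0.021), DESeq2's size factors (0.16) and ribosomal RNA left out (0.15), and ran from -1.21 to 1.05 with 1 library left out. Erbb3 ran from -1.05 to 0.012 in limma and from -0.87 to 0.26 in edgeR with 1 library left out, and was above 0 in edgeR without trailing replicate 1 (0.26) and without wavefront replicate 1 (0.12). Where a library was left out, the lone library of its group is assumed to vary like the other group. For the other changes the cause was not tested. Depth limits Fabp7, Mbp and Pmp22, which had 10, 27 and 23 reads in all.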

Other observations

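Relatives of the 8 genes were read from family lists. In the S100 family, where S100b had 0 reads, 6 of 18 listed genes had a read. S100a16 had 29 and 24 trailing against 30 and 8 wavefront reads, and S100a10, a partner of annexin A2, had 20 and 18 against 13 and 2. EdgeR tested these 2 and called neither (S100a16 -0.09 ± 0.37, adjusted p = 0.968; S100a10 -0.97 ± 0.51, adjusted p = 0.536), with 0 at an unadjusted p under 0.05, and DESeq2 called 0 of 2 and limma 0 of 4. Of 13 ectonucleotidase genes, 8 had a read, with sums of 28 and 21 reads against 32 and 7, and 0 passed the filter of the count test. As CPM outside ribosomal RNA these sums were 72.4 and 63.5 trailing against 70.8 and 60.9 wavefront. The most reads were those of Entpd6, with 5 and 5 against 7 and 3.

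In the family of small fatty acid and retinoid binding proteins that holds Fabp7, 7 of 15 genes had a read. EdgeR tested 3 of them and 1, not named here, fell at the wavefront, where 1.34% of all genes tested fell. DESeq2 called 1 of 3 and limma 0 of 6, with 3 at an unadjusted p under 0.05. The 2 genes named next were not called. Fabp5, the listed Fabp gene with the most reads, had 58 and 44 trailing against 49 and 11 wavefront reads (-0.40 ± 0.32, edgeR adjusted p = 0.781). Crabp1, a retinoic acid binding protein, had 26 and 22 against 14 and 4 (-1.01 ± 0.45, edgeR adjusted p = 0.42). Of the relatives of Pmp22, Tmem47 had 30 and 15 against 27 and 15 reads (0.38 ± 0.40, edgeR adjusted p = 0.852), and Emp1, Emp2 and Emp3 had 1 to 3 reads each in all.

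Melanocytes are another derivative of the neural crest that expresses Sox10. Of 7 listed melanocyte genes 5, among them Dct, Tyr, Pmel and Mlana, had 0 reads, and the other 2, Mitf and Kit, gave 2 and 5 trailing against 4 and 6 wavefront reads. As CPM outside ribosomal RNA these sums were 5.17 and 15.1 against 8.85 and 52.2, the last from the shallow wavefront replicate 2.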
